A study of Mus musculus with 6 samples.

Results

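Homeobox genes encode transcription factors that bind DNA through a homeodomain, and 47 of them outside the usual otic patterning set were followed here. The genes were taken by symbol: the Irx, Meis/Pbx, Tgif, Prrx/Alx, Lhx and Dlx/Msx families, the sine oculis genes Six2, Six4 and Six5, the pair Shox2 and Pitx1, the zinc finger homeobox genes (Zfhx and Zeb), the cut class (Cux, Satb and Onecut), and Hlx and Hhex. Each of the 47 symbols matched 1 Ensembl identifier among the 39179 genes of the count files. The libraries were made from sensory epithelia of the cochlea, the hearing organ, and of the vestibule, the balance organ, of wild-type C57Bl/6J mice on postnatal day 0, with males and females pooled and no treatment or altered allele in either group. Each tissue has 3 libraries of whole-tissue RNA. The design text gives 20 inner ears from 10 mice, with 2.4 μg of cochlear and 1.5 μg of vestibular RNA, and 450 ng for each library. Nothing states that the 3 libraries of a tissue came from separate animals, so p-values measure the spread between these libraries, which may be technical.

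The homeodomain is a short helical fold whose recognition helix reads AT-rich DNA. The Irx, Meis, Pbx, Pknox and Tgif proteins belong to the TALE class, in which a loop of the homeodomain is longer, and Meis and Pknox proteins bind DNA with Pbx partners. Dlx and Msx proteins share a related homeodomain, with Dlx proteins known mainly as activators and Msx proteins as repressors. LIM homeodomain factors such as Isl1 and Isl2 act with Ldb and Lmo proteins, sine oculis factors such as Six2 with Eya coactivators and Dach proteins, and Zeb factors are repressors of epithelial genes. In the inner ear Isl1 is known from the sensory epithelium and its neurons.

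The counts on genes ran from 24464483 to 33664793 per library, and CPM are counts scaled by this total, so that 1 CPM stood for 24.5 to 33.7 counts. Differential expression was tested with edgeR's quasi-likelihood test on the 14723 genes that reached 1 CPM in no fewer than 3 libraries. Fold changes are log2 values of the vestibule minus the cochlea. Hair cell markers summed to 667 to 840.1 CPM in the cochlea, against 1158 to 1448 in the vestibule, with 5 of 10 higher in the vestibule and 1 in the cochlea. Supporting cell markers summed to 2067 to 2840 CPM and 2990 to 3545, with 6 of 10 higher in the cochlea and 2 in the vestibule. Without Otog the sum was 1405 to 1685 CPM in the cochlea, against 1095 to 1255 in the vestibule, and the median log2 fold change of the list was -0.74. Both tissues also held other cells: cartilage and bone markers summed to 10557 to 17952 CPM in the cochlea, against 13071 to 16474 in the vestibule (2 higher in the cochlea, 5 in the vestibule, Bglap under 1 CPM in each library, and without Col2a1 sums of 2648 to 3049 and 3569 to 4399), and Schwann cell markers to 742 to 907 and 1298 to 1659 CPM (3 of 8 higher in the vestibule). Red blood cell markers ran from 292 to 737 and from 476 to 638 CPM, with no call. Cochlea replicate 3 stood apart by skeletal muscle markers, which summed to 298 CPM there and to between 4.58 and 28.3 CPM in the other libraries. None of the 8 muscle markers was called (4 were tested), and Myog was under 1 CPM in each library.

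The start-site sequences of the members with the largest changes are shown so that their base make-up and motif letters can be set beside the values. RefSeq windows (GRCm38.p6) were at hand for 33 of the 47 members, and the 3 with the largest called change in each direction among these were Meis2, Msx2 and Meis1 (higher in the vestibule) and Isl2, Shox2 and Irx3 (higher in the cochlea). Each line gives the 250 bases before a RefSeq start site on the gene's strand, 5′ to 3′. The windows of Meis2, Msx2, Isl2 and Irx3 lie inside the gene's span in the GENCODE annotation used here for coordinates. They are therefore upstream of the RefSeq start site but not of the whole annotated gene. Capitals mark TAATTA (a homeodomain core), TGACAG (a core read by Meis and Tgif proteins), CACCTG (an E-box read by Zeb factors) and TATAAA (an element bound by the TBP protein), each searched on both strands.
Meis2, minus strand, chr2:116064620-116064869: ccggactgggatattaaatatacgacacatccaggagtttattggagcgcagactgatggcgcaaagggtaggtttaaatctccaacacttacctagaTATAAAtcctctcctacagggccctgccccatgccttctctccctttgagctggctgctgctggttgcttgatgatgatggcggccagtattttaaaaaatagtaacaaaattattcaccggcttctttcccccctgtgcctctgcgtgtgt
Msx2, minus strand, chr13:53472781-53473030: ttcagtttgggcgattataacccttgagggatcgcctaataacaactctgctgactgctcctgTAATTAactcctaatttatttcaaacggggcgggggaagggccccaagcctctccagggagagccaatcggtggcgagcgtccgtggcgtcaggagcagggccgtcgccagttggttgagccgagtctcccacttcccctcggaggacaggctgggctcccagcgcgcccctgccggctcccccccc
Meis1, minus strand, chr11:19018970-19019219: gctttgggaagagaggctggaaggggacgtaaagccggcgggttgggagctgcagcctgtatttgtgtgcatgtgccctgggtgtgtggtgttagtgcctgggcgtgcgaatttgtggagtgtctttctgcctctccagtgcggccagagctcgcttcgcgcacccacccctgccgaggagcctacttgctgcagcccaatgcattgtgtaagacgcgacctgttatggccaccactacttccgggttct
Isl2, plus strand, chr9:55540899-55541148: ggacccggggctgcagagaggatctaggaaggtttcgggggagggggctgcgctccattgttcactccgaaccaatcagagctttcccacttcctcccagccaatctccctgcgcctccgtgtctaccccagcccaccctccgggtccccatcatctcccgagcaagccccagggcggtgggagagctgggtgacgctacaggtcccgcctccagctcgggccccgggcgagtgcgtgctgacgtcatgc
Shox2, minus strand, chr3:66981772-66982021: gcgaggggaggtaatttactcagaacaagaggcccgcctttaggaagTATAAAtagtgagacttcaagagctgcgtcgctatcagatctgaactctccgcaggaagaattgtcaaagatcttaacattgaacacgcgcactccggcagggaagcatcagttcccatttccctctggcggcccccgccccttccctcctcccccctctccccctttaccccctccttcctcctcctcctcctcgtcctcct
Irx3, minus strand, chr8:91801655-91801904: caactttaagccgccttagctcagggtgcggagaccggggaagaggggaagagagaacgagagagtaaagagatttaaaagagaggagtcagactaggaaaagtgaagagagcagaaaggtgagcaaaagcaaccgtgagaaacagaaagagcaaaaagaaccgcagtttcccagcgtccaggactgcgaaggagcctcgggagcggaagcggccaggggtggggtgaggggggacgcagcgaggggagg

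The Msx2 window held TAATTA, and the Meis2 and Shox2 windows each held TATAAA. Between TATAAA and the start site lay 146 bases for Meis2 and 197 for Shox2, and its use was not tested. The windows of Meis1, Isl2 and Irx3 held none of the 4 motifs. The G and C content was 47.6% for Meis2, 59.6% for Meis1, 61.6% for Msx2, 66.8% for Isl2, 55.6% for Shox2 and 56.0% for Irx3. Some members have several start sites, which gave 47 windows for the 33 members, with a median G and C content of 62.0% against 52.4% over all 32851 windows. TAATTA was in 2 of the member windows (Msx2 and Prrx1) and in 4.84% of all windows. TGACAG was in 4 member windows and in 15.9% of all, CACCTG in 5 and in 17.2%, and TATAAA in 3 and in 12.4%. The letters overlap in no printed window.

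Of the 47 members, 39 passed this filter on CPM and were tested, and 8 did not (Irx4, Alx1, Alx4, Pitx1, Lhx2, Lhx9, Lmx1b and Onecut1). At an FDR of 0.05 (Benjamini-Hochberg adjustment over all genes tested), 11 members were higher in the cochlea, against 12 in the vestibule, where 11.6% and 15.8% of all genes tested were. The remaining 16 tested members were not called. Dlx4 and Msx2 passed the filter through the vestibule alone and Shox2 through the cochlea alone, so a difference between the tissues is built into their inclusion. The members that were called spread over both directions and most families: each tested member of Irx, Lhx, Dlx/Msx and Hlx/Hhex was called, and neither of the tested Prrx genes. A fold of 4 or more was reached by 11 called members, against 5.86% of all genes tested. In 27 of the 39 tested members the 3 libraries of one tissue lay above the 3 of the other, as they did in 41.8% of all genes tested. The median log2 fold change was 0.13 over the tested members and 0.0048 over all genes tested, and the median size of the change, without its sign, was 0.94 and 0.32. In tissue RNA fewer cells of a type and less RNA per cell cannot be told apart, which holds for each value that follows.

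**Figure D1:**
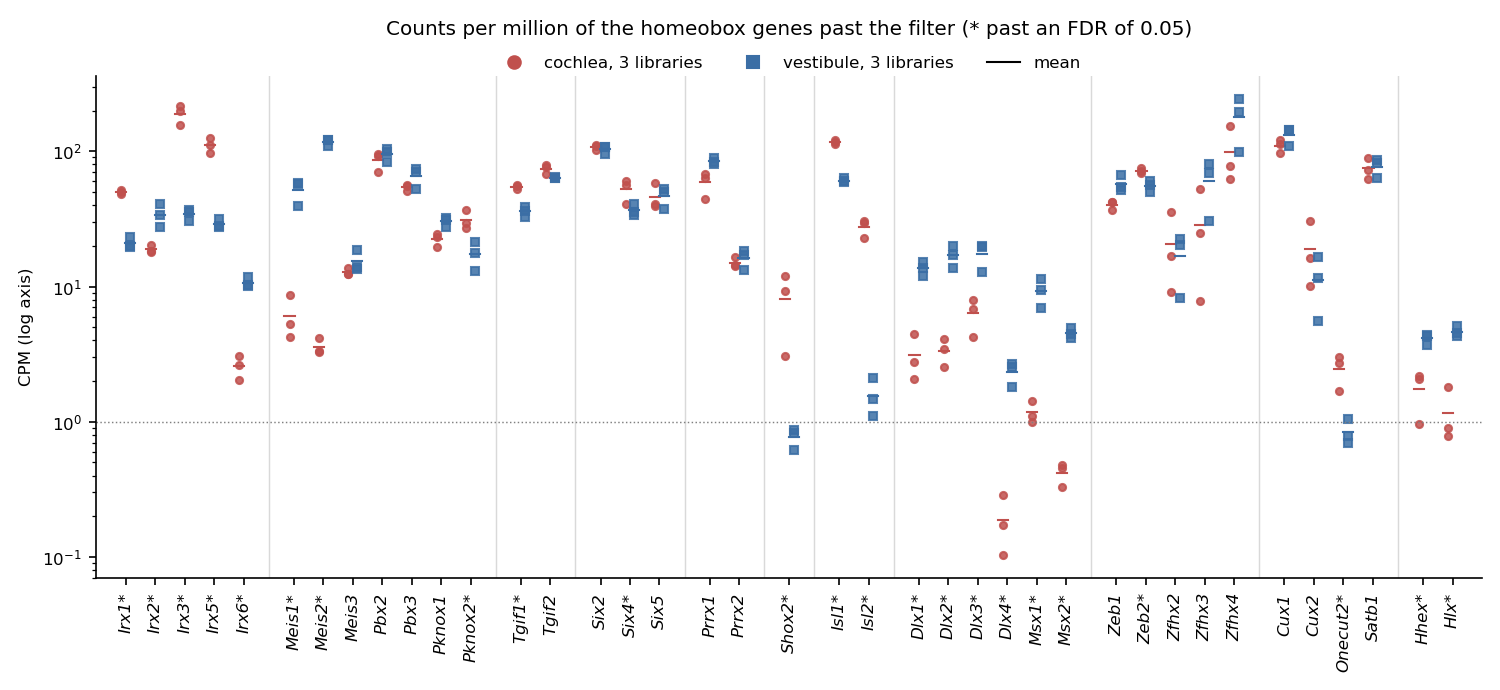
CPM of the 39 tested members in each of the 3 cochlear (circles) and 3 vestibular (squares) libraries, on a log axis, with the mean of each tissue as a bar, members grouped by family, and the dotted line at 1 CPM. Meis2, Isl2, Dlx4, Msx2 and Shox2 are among the members with wide gaps between the tissues on this scale, while Zfhx2, Zfhx3, Zfhx4 and Cux2 spread widely within each tissue.

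**Figure D2:**
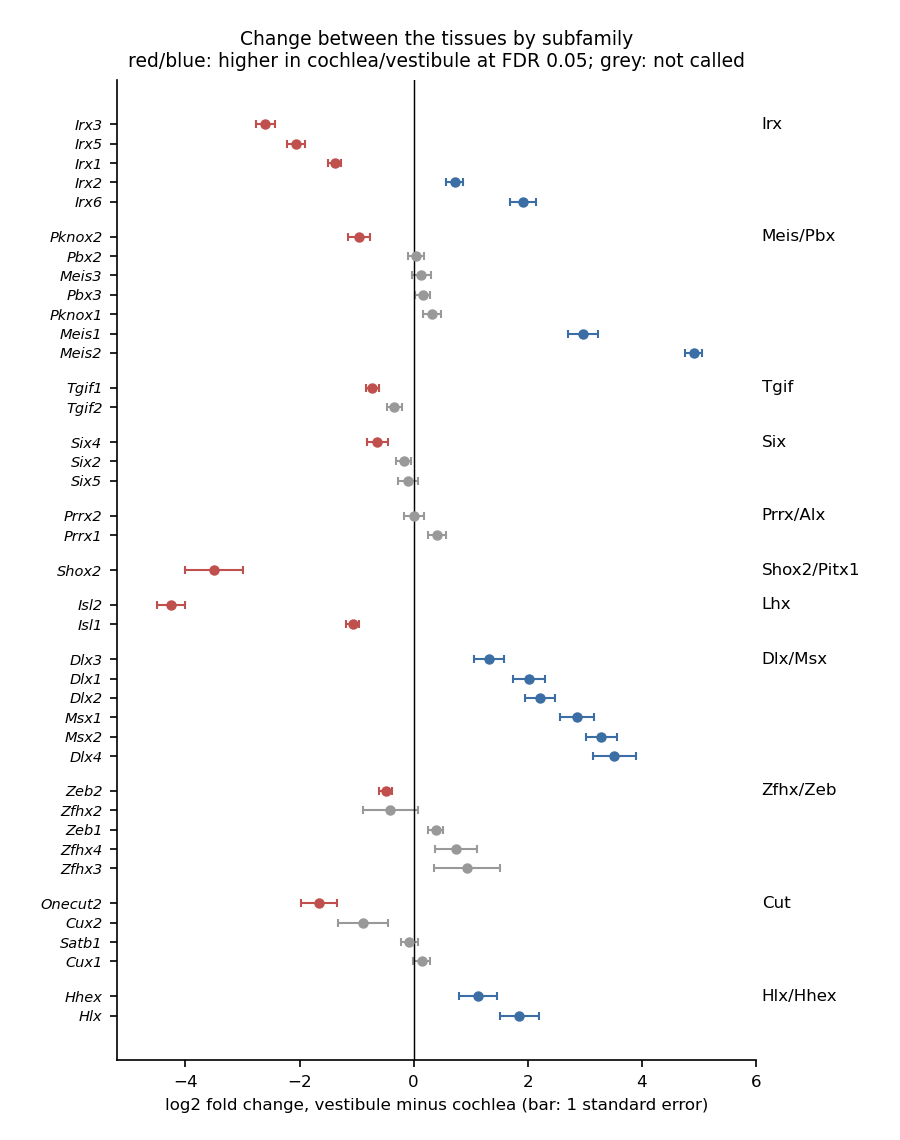
Log2 fold change (vestibule minus cochlea) of the 39 tested members with 1 standard error, by family, with members called at an FDR of 0.05 in red (higher in the cochlea) or blue (higher in the vestibule). The 6 Dlx and Msx genes lie to the right of 0, Isl1 and Isl2 to the left, and the Irx family and the Meis/Pbx family lie on both sides.

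The Irx (Iroquois) genes, patterning factors that lie in 2 genomic clusters, split between the tissues. Irx3, Irx5 and Irx1 were higher in the cochlea, and Irx2 and Irx6 in the vestibule. Irx3 (ENSMUSG00000031734, chromosome 8, 91798525 to 91802067 of GRCm38) had 156, 214 and 200.1 CPM in the cochlea, against 35.8, 36.5 and 30.6 in the vestibule. The lowest cochlear library was thus over 4 times the highest vestibular one, and the log2 fold change was -2.60 (standard error 0.17, adjusted p = 1.34e-05). Irx5, its neighbour on the same chromosome, had 97.7, 126 and 111 CPM in the cochlea, against 27.7, 27.9 and 31.7 in the vestibule. Its log2 fold change was -2.06 (standard error 0.16, adjusted p = 4.40e-05), again with no overlap. Irx6, the next gene of this cluster and 298 kb from Irx5, went the other way, with 2.04, 2.64 and 3.08 CPM in the cochlea, against 10.2, 10.1 and 11.7 in the vestibule (log2 fold change 1.92, standard error 0.22, adjusted p = 0.000339). The cluster on chromosome 13 split in the same manner. Irx1 had 51.8, 48.2 and 50.3 CPM in the cochlea, against 23.2, 19.8 and 19.5 in the vestibule (log2 fold change -1.39, standard error 0.12, adjusted p = 7.01e-05). Irx2, which lies 665 kb from Irx1, had 18.1, 18.4 and 20.1 CPM in the cochlea, against 40.4, 34.0 and 27.5 in the vestibule (log2 fold change 0.72, standard error 0.15, adjusted p = 0.00688). Irx4, the third gene of that cluster, had at most 1 count in any library. An opposite-strand gene, Irx3os, shares exon bases with Irx3 and had 8.61 to 15.5 CPM in the cochlea, against 1.41 to 2.73 in the vestibule. The kit keeps the strand, but the strand setting of the counting is not given in the sources used here, so reads of this pair may not be told apart.

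The make-up of the Irx family, taken as shares of its summed RPKM (read counts scaled by gene length and library total, from the authors' log2 matrix), shifted with these changes. Irx3 made up 47.8% ± 2.46 (SD, n = 3) in the cochlea, against 26.4% ± 1.75 in the vestibule. Irx2 made up 4.06% ± 0.427 and 22.0% ± 2.99, and Irx6 0.539% ± 0.0755 and 6.80% ± 0.922. The share of Irx1 was at most 17.5% in the cochlear libraries and at least 17.9% in the vestibular ones, and that of Irx5 was 32.6% ± 1.02 and 26.0% ± 3.38. The RPKM of Irx1 was 3.68 ± 0.262 times that of Irx2 in the cochlea, against 0.860 ± 0.105 times in the vestibule, so the order of these neighbours turned over. Irx3 and Irx5 stayed closer, at a ratio of 1.47 ± 0.0887 and 1.03 ± 0.168. The family's summed level was 125 to 157 RPKM in the cochlea, against 44.4 to 49.7 in the vestibule.

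**Figure D3:**
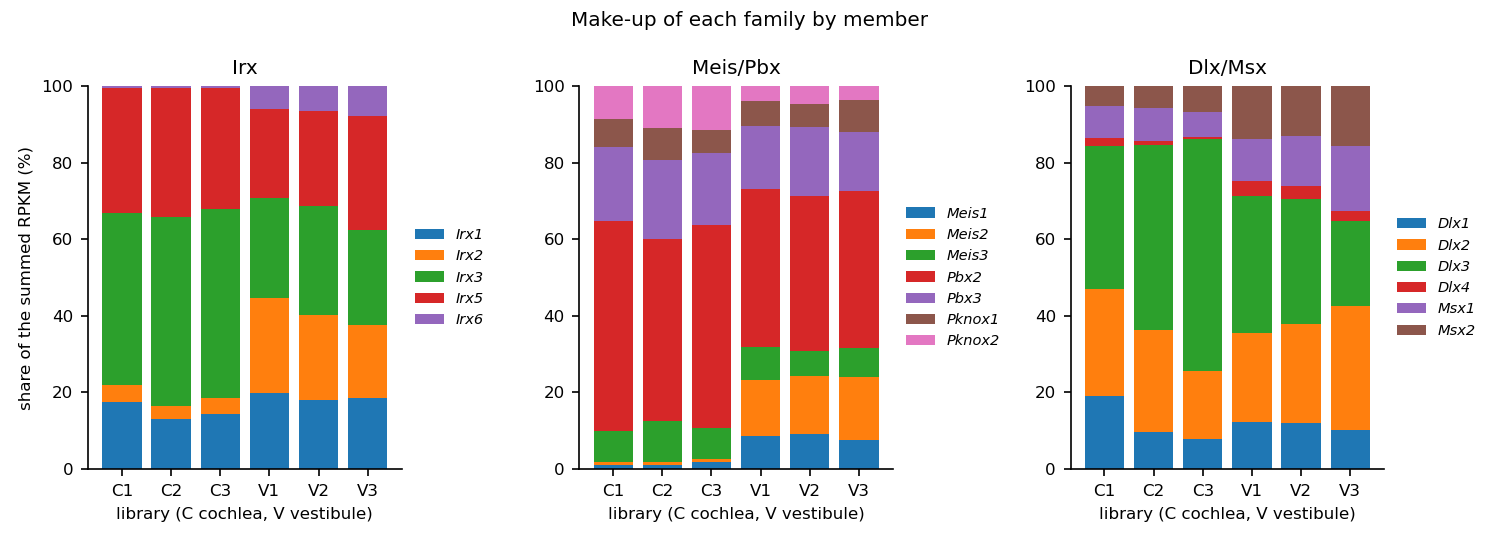
Share of the summed RPKM of the Irx, Meis/Pbx and Dlx/Msx families taken by each tested member (y axis, in percent), in each cochlear (C1 to C3) and vestibular (V1 to V3) library. Irx2 and Irx6 widen and Irx3 narrows in the vestibule, Meis1 and Meis2 rise from thin bands to broad ones, and the Dlx/Msx shares vary between libraries of the cochlea as well.

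In the Meis/Pbx family the difference lay in Meis1 and Meis2, while the Pbx partners and Meis3 were not called. Meis2 (ENSMUSG00000027210, chromosome 2, 115863064 to 116065839 of GRCm38) had 3.35, 3.26 and 4.17 CPM in the cochlea, against 121, 122 and 110.3 in the vestibule. The change of 4.91 on the log2 scale (standard error 0.15, adjusted p = 1.69e-06), 30.1-fold, was the largest of the tested members. Meis1 had 5.31, 4.24 and 8.62 CPM in the cochlea, with the highest value in replicate 3, and 57.5, 57.9 and 39.5 in the vestibule (log2 fold change 2.97, standard error 0.26, adjusted p = 7.19e-05). Per length, Meis1 was above Meis2 in the cochlea, at 0.641 ± 0.242 RPKM against 0.302 ± 0.0421, and below it in the vestibule, at 5.46 ± 1.11 against 9.85 ± 0.538 (SD, n = 3). Among the tested TALE genes these were the members with the largest log2 fold changes. Meis3 had 12.4 to 13.7 CPM in the cochlea, against 13.5 to 18.6 in the vestibule, with a log2 fold change of 0.13. Pbx2 and Pbx3, the partners of Meis proteins on DNA, had log2 fold changes of 0.036 and 0.16, with mean levels of 23.6 and 8.87 RPKM in the cochlea, against 26.3 and 10.8 in the vestibule. Pbx2 was the member of this family with the most RPKM in each tissue, at 51.8% ± 3.72 of the family sum in the cochlea, against 40.9% ± 0.442 in the vestibule. Pknox1, a Meis-like TALE factor, had a log2 fold change of 0.32 and was not called (adjusted p = 0.163), though its vestibular libraries (27.4 to 32.2 CPM) lay above its cochlear ones (19.5 to 24.3). Pknox2, its relative, was higher in the cochlea. It had 27.2, 29.3 and 36.6 CPM there and 17.8, 21.4 and 13.1 in the vestibule (log2 fold change -0.96, standard error 0.19, adjusted p = 0.00583). The median log2 fold change of the 7 genes of this family was 0.16, a value that hides the opposite moves.

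The Tgif genes, TALE repressors of TGF-beta and retinoid responses, were both higher per library in the cochlea, and Tgif1 passed the test. Tgif1 had 55.0, 55.9 and 52.8 CPM in the cochlea, against 36.3, 39.0 and 32.7 in the vestibule (log2 fold change -0.72, standard error 0.12, adjusted p = 0.00231). Tgif2 had 67.9 to 78.9 CPM and 63.3 to 64.5 (log2 fold change -0.34, adjusted p = 0.0808), and it was called without cochlea replicate 3 (-0.42, adjusted p = 0.0403).

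Each of the 6 Dlx and Msx genes was higher in the vestibule, with no overlap between the tissues, at low levels throughout. Dlx1 and Dlx2, which lie 9.43 kb apart on chromosome 2, were both higher in the vestibule, and per length Dlx1 was 0.494 ± 0.171 times Dlx2 in the cochlea, against 0.438 ± 0.108 times in the vestibule (SD, n = 3). Dlx1 had 4.46, 2.78 and 2.09 CPM in the cochlea, against 13.8, 15.2 and 12.0 in the vestibule (log2 fold change 2.02, standard error 0.28, adjusted p = 0.000798). Dlx2 had 3.43, 4.10 and 2.53 CPM in the cochlea, against 13.8, 17.2 and 19.9 in the vestibule (log2 fold change 2.22, standard error 0.26, adjusted p = 0.000365). The other pair, Dlx3 and Dlx4, lies 15.2 kb apart on chromosome 11, and its members differed in level. Dlx3 had 4.25, 6.87 and 7.90 CPM in the cochlea, against 19.6, 20.0 and 12.7 in the vestibule (log2 fold change 1.33, standard error 0.26, adjusted p = 0.00578). Dlx4 was near the detection limit in the cochlea, with 7, 5 and 3 counts (0.286, 0.174 and 0.103 CPM), and had 2.67, 2.53 and 1.81 CPM in the vestibule (log2 fold change 3.52, standard error 0.37, adjusted p = 0.000194). Dlx4os, on the opposite strand, shares exon bases with Dlx4 and had 1.13 to 2.22 CPM in the vestibule and 0.103 to 0.278 in the cochlea, close to the values of Dlx4 itself. Msx1 had 1.1, 1.42 and 0.992 CPM in the cochlea, against 6.95, 9.42 and 11.4 in the vestibule (log2 fold change 2.86, standard error 0.30, adjusted p = 0.00018). Msx2 had 0.327, 0.451 and 0.479 CPM in the cochlea, against 4.19, 4.48 and 4.91 in the vestibule (log2 fold change 3.29, standard error 0.27, adjusted p = 5.31e-05). The median log2 fold change of the family was 2.54. The family's summed level was 4.34 to 5.41 RPKM in the cochlea, against 20.8 to 23.4 in the vestibule, where Dlx3 and Dlx2 held 30.2% ± 7.05 and 27.1% ± 4.66 of it (SD, n = 3).

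Summed markers of some other cell types were higher in the vestibule, as the called Dlx, Msx and Meis genes were. The sum of the mesenchyme markers was 4210 to 4668 CPM in the cochlea, against 6772 to 7690 in the vestibule, with 4 of 10 higher in the vestibule and 2 in the cochlea, and without Col1a2 it was 2034 to 2342 CPM, against 2155 to 2439. The median log2 fold change of the list was 0.34. Markers of dark cells and stria summed to 680.3 to 857 and 1307 to 1427 CPM (6 of 8 higher in the vestibule, none in the cochlea). Melanocyte markers summed to 40.6 to 65.1 and 295 to 352 CPM (6 of 6 higher in the vestibule). The part of these cells in the values of the Dlx, Msx and Meis genes was not tested.

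Of the 5 LIM homeodomain members, Isl1 and Isl2 passed the filter and both were higher in the cochlea. The LIM homeodomain genes Lhx3 and Lmx1a, which are not members and were named after their values were seen, were higher in the vestibule, with log2 fold changes of 0.99 (adjusted p = 0.00292) and 1.18 (adjusted p = 0.000657). Isl2 (ENSMUSG00000032318, chromosome 9, 55538672 to 55546180 of GRCm38), known from motor and sensory neurons, had 22.8, 29.5 and 30.5 CPM in the cochlea, against 2.11, 1.48 and 1.1 in the vestibule. The change of -4.25 on the log2 scale (standard error 0.25, adjusted p = 9.00e-06), 19.1-fold, was the largest of the tested members in the direction of the cochlea. Isl1 had 112, 117 and 122 CPM in the cochlea, against 59.8, 63.0 and 59.3 in the vestibule (log2 fold change -1.07, standard error 0.12, adjusted p = 0.000232). Per length, Isl1 was 2.38 ± 0.302 times Isl2 in the cochlea, against 22.9 ± 7.02 times in the vestibule (SD, n = 3). Lhx2, Lhx9 and Lmx1b stayed under 1 CPM in each library, with at most 0.594, 0.0785 and 0.740 CPM.

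Shox2, a short-stature homeobox factor, and Onecut2, a cut-class factor with an Onecut domain, were also higher in the cochlea. Shox2 had 12.0, 9.20 and 3.05 CPM in the cochlea, against 0.832, 0.623 and 0.864 in the vestibule (log2 fold change -3.50, standard error 0.51, adjusted p = 0.00108). Its cochlear values spread 3.95-fold, with replicate 3 the lowest. Exons of Rsrc1 overlap those of Shox2 on the opposite strand, with 36.5 to 51.2 CPM in the cochlea, against 40.2 to 48.2 in the vestibule. Onecut2 had 3.02, 2.71 and 1.68 CPM in the cochlea, against 1.04, 0.701 and 0.785 in the vestibule (log2 fold change -1.66, standard error 0.31, adjusted p = 0.0044). Neuron markers were higher in the cochlea as well, with 5 of 10 called there and none in the vestibule. Their sum was 680.0, 639 and 311 CPM in the 3 cochlear libraries and 380.0, 148 and 189 in the vestibular ones, and without Nefm it was 258 to 577 and 80.4 to 209 CPM. Cochlea replicate 3, the lowest of its tissue for neuron markers, was also the lowest for Shox2 and Onecut2, while it was the highest for Isl2 and Isl1. The part of neurons in these values was not tested.

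Prrx1 and Prrx2, markers of mesenchyme in many organs, were not called. Prrx1 had 63.9, 44.7 and 67.9 CPM in the cochlea, against 83.9, 89.3 and 79.9 in the vestibule, with no overlap (log2 fold change 0.41, adjusted p = 0.0841), and it was called without cochlea replicate 3 (0.50, adjusted p = 0.0479). Prrx2 had 14.1 to 16.5 and 13.2 to 18.3 CPM, with a log2 fold change of 0.0019 and a standard error of 0.18. Their relatives Alx1 and Alx4 did not pass the filter. Alx4 came closest, with 0.491, 0.521 and 0.719 CPM in the cochlea, against 2.05, 1.91 and 0.942 in the vestibule, and Alx1 had 0, 0 and 1 counts in the cochlea, against 8, 12 and 5 in the vestibule. In a fit with no filter on CPM, Alx1, Alx4 and Lmx1b were past the threshold towards the vestibule. Pitx1 had at most 2 counts in any library.

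In the sine oculis family, whose members act with Eya proteins in placodes and muscle precursors, Six2 was the member with the most RPKM in the vestibule and stood beside Irx3 and Irx5 at the top in the cochlea. It had 102, 110.3 and 111 CPM in the cochlea, against 95.5, 108 and 108 in the vestibule, which differed by -0.17 on the log2 scale (standard error 0.13, adjusted p = 0.370). Six5 had 39.3 to 58.6 and 37.7 to 53.0 CPM (log2 fold change -0.10). Six4 was higher in the cochlea by a small margin, with 40.7, 60.3 and 56.8 CPM there and 34.0, 35.6 and 40.7 in the vestibule (log2 fold change -0.64, standard error 0.19, adjusted p = 0.0361). The lowest cochlear and the highest vestibular library of Six4 differed by little, and its call was lost without cochlea replicate 2 (adjusted p = 0.131), cochlea replicate 3 (0.0581), vestibule replicate 1 (0.128) or vestibule replicate 2 (0.144), with the replicate number as a block (0.0637), with library sizes alone in place of TMM factors (0.0565) and on the log2 RPKM (0.0949).

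Zeb2 and Zeb1, zinc finger homeobox repressors, pointed in opposite directions with small changes. Zeb2 had 71.1, 69.7 and 75.5 CPM in the cochlea, against 60.4, 56.8 and 50.1 in the vestibule (log2 fold change -0.49, standard error 0.11, adjusted p = 0.0116). The call was lost with library sizes alone in place of TMM factors (adjusted p = 0.0536), without vestibule replicate 2 (0.083) with the replicate block (0.0836) and on the log2 RPKM (0.0805). Zeb1 had 37.0 to 42.0 CPM in the cochlea, against 52.0 to 66.5 in the vestibule, with no overlap, and was not called (log2 fold change 0.39, adjusted p = 0.0613), whereas it was with library sizes alone (0.52, adjusted p = 0.026) and with limma on the log2 RPKM (0.51, adjusted p = 0.0451).

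The very large zinc finger homeobox genes Zfhx2, Zfhx3 and Zfhx4 and the cut-class gene Cux2 varied widely within each tissue and were not called over all libraries. Zfhx3 had 7.85, 24.9 and 52.8 CPM in the cochlea, against 79.9, 69.1 and 30.7 in the vestibule (log2 fold change 0.94, standard error 0.57, adjusted p = 0.267). Zfhx4 had 62.5, 78.1 and 154 CPM in the cochlea, against 244, 194 and 98.8 in the vestibule (log2 fold change 0.74, standard error 0.37, adjusted p = 0.177). In each of them cochlea replicate 3 was the highest of its tissue and vestibule replicate 3 the lowest. Zfhx2 had 9.16, 16.9 and 35.6 CPM in the cochlea, against 20.2, 22.4 and 8.24 in the vestibule, and Cux2 10.1, 16.4 and 30.5 and 16.6, 11.6 and 5.57. Their log2 fold changes were -0.41 and -0.89, and neither was called. These 4 genes were the members whose highest library was at least 2 times the lowest in both tissues, which held for 4.16% of all genes tested. The share of listed counts that fell on no gene moved with them, at 4.30%, 4.73% and 7.45% in the 3 cochlear libraries and 6.85%, 7.0% and 5.77% in the vestibular ones. It was highest in cochlea replicate 3 among the cochlear libraries and lowest in vestibule replicate 3 among the vestibular ones. Its part in these values was not tested. Without cochlea replicate 3, Zfhx3 and Zfhx4 were called as higher in the vestibule (log2 fold changes 1.69 and 1.19, adjusted p = 0.0384 and 0.0235), and Zfhx2 changed sign to 0.21 without being called.

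**Figure D4:**
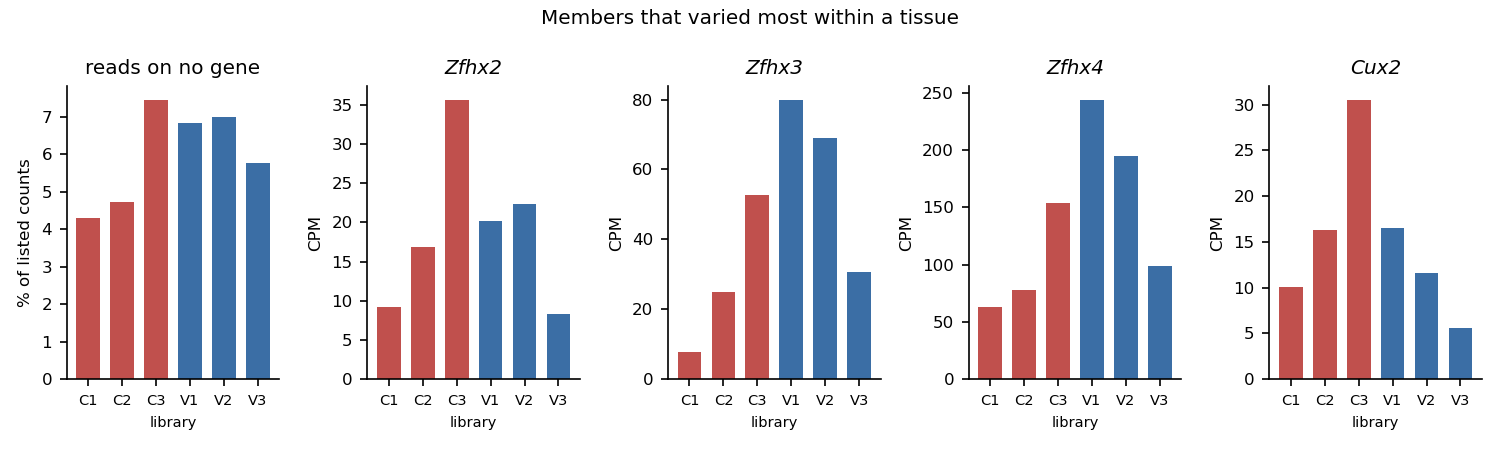
Share of listed counts on no gene (left, in percent) and CPM of Zfhx2, Zfhx3, Zfhx4 and Cux2 in each cochlear (C1 to C3, red) and vestibular (V1 to V3, blue) library. In the 5 panels C3 is the highest cochlear bar and V3 the lowest vestibular one.

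The other cut-class genes, Cux1 and the chromatin organiser Satb1, were expressed at like levels in both tissues and were not called. Cux1 had 96.3 to 121 CPM in the cochlea, against 109.9 to 145 in the vestibule (log2 fold change 0.14, standard error 0.15). Satb1 had 62.7 to 88.9 and 63.7 to 85.8 CPM (log2 fold change -0.075, standard error 0.15). Onecut1 had 1 count in all 6 libraries together.

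Hlx and Hhex, homeobox factors known from visceral mesenchyme and from endothelium and blood, were low and higher in the vestibule. Hlx had 0.899, 1.81 and 0.787 CPM in the cochlea, against 4.54, 5.10 and 4.28 in the vestibule (log2 fold change 1.85, standard error 0.34, adjusted p = 0.00397). Hhex had 2.08, 2.19 and 0.958 CPM in the cochlea, against 4.31, 3.70 and 4.40 in the vestibule (log2 fold change 1.12, standard error 0.33, adjusted p = 0.0339). The call of Hhex was lost without cochlea replicate 1 (adjusted p = 0.0601) or vestibule replicate 1, 2 or 3 (0.0783, 0.0673 and 0.0749), and with the replicate block (0.0841). Endothelial markers summed to 192 to 270 CPM in the cochlea, against 437 to 622 in the vestibule (6 of 8 higher in the vestibule, 1 in the cochlea), and without Kdr the sums overlapped, starting at 179.6 CPM in the cochlea and reaching from 229.6 to 359 in the vestibule. Macrophage markers summed to 105 to 125 and 415 to 464 CPM (8 of 8 higher in the vestibule). The part of endothelial cells and macrophages in the values of Hlx and Hhex was not tested.

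Levels of the members per length covered a wide range. In the cochlea the highest mean levels were those of Irx3 (68.6 ± 11.0 RPKM), Six2 (50.7 ± 2.46), Irx5 (46.6 ± 6.01), Isl1 (29.6 ± 1.26) and Pbx2 (23.6 ± 3.76), and the lowest of the tested members was Dlx4 at 0.0603 ± 0.0284. Six2 and Irx5 lay within their spread of each other. In the vestibule the highest were Six2 (48.9 ± 3.39 RPKM), Pbx2 (26.3 ± 2.97), Tgif2 (16.8 ± 0.161), Six5 (15.6 ± 2.71), Isl1 (15.4 ± 0.502), Irx3 (12.4 ± 1.17) and Irx5 (12.1 ± 0.936). Six5 did not differ from Tgif2 or from Isl1 beyond its spread, nor did Irx3 from Irx5, whereas the 3 libraries of Tgif2 lay above those of Isl1. By rank among the 39 tested members Meis2 stood at 36 in the cochlea and at 11 in the vestibule, and Isl2 at 10 and at 37. All levels are means ± SD over 3 libraries.

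Paralogs of the members and their protein partners, taken from lists, were looked at by count. Of 21 paralogs outside the set, 9 were tested, 2 were higher in the cochlea, against 4 in the vestibule, beside the 27.4% of all genes tested that were called in either direction. Among the 4, Dlx5 and Dlx6 passed the filter through the vestibule alone, so that their difference is built into their inclusion. Dlx5 had 0.445 to 0.572 CPM in the cochlea, against 18.3 to 20.8 in the vestibule, and Dlx6 0 to 0.240 and 11.0 to 13.2. Of 39 Hox genes, 38 were matched and 37 of these were under 1 CPM in each library, and the tested one, Hoxa2, was higher in the cochlea at 2.50 to 3.70 CPM against 0.942 to 1.43. Of the 6 Eya and Dach genes that partner sine oculis factors, 3 were higher in the cochlea (Eya1 with -1.0 and Eya4 with -0.63 lead them) and 2 in the vestibule (Dach2 with 1.60 and Eya2 with 0.65). Of 9 LIM partners, Lmo3 (-3.39) and Ldb2 (-1.06) were higher in the cochlea and Lmo2 (0.79) in the vestibule. Of 7 Zeb corepressors and epithelial genes, the cadherin Cdh1 was higher in the cochlea (-0.94), and 3 were higher in the vestibule, with Ctbp2 (0.84) and Grhl2 (0.73) the largest.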

How the data were processed

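The authors aligned the reads with TopHat2 2.1.0 to GRCm38 and deposited raw counts per Ensembl gene from HTSeq 0.5.4p5, with SAMtools 0.1.18, per the labels. The 5 summary lines of each file (18.5% to 20.6% of listed counts) stayed out of library sizes and tests. A matrix of log2 RPKM, deposited by the authors, covers 14722 genes and was made with edgeR (3.4.2 in the submitters' processing notes). All matrix columns belong to these samples. Groups follow the tissue labels.

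Symbols were matched with GENCODE vM21 names, and coordinates are those of that annotation on GRCm38, not of the release the authors counted on. The test was edgeR 4.0.16 quasi-likelihood, on genes that reached 1 CPM in no fewer than 3 libraries (R 4.3.3), after TMM scaling, at an FDR of 0.05, with no block. Printed CPM use the counts on genes without TMM factors. The standard error is the size of the log2 fold change divided by the square root of the F statistic. Scripts were first tested on simulated data. Members and lists were chosen with earlier results of these data known. The rule for named genes was to account for all 47 members and to describe each called one in full, to give counts for each related list with at most 2 called genes by name in each direction, and to give counts and summed CPM for each marker list. Some genes of these lists are not reported here. Deviations from the tissue means correlated at -0.18, -0.26 and -0.47 between same-numbered libraries of the tissues, and at -0.27 to 0.41 between differently numbered ones. With 3 libraries in each tissue the deviations are tied to each other, so these values cannot show whether the numbers pair the libraries. The alternatives tried were other scalings and filters, DESeq2 1.42.0, limma 3.58.1 (voom, and on the log2 RPKM), edgeR's likelihood ratio test, the replicate block and leaving out each library. Plots come from matplotlib 3.10.9 under Python 3.11.15.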

Additional observations from a re-analysis of the deposited data

How the results depend on the processing

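The 23 called members kept their direction under each alternative in which they were tested, and 20 of them stayed past the threshold in each. The exceptions are Six4, Zeb2 and Hhex, given above. Of the 16 tested members not called, 5 were called under at least 1 alternative (Prrx1, Tgif2, Zeb1, Zfhx3 and Zfhx4). The count of members higher in the cochlea ran from 9 to 11 with each library left out and that of members higher in the vestibule from 9 to 15, the highest without cochlea replicate 3. With the replicate block the counts were 9 and 11. With only library sizes as scaling they were 9 and 13, and the median over all genes tested rose to 0.13 on the log2 scale. With no filter on CPM they were 11 and 15, and with at least 5 CPM 9 and 8, since fewer members were tested. Shox2 was not tested without a cochlear library, nor Dlx4 and Msx2 without a vestibular one, since 2 libraries do not pass the filter. Members past the filter numbered from 37 to 38 with each library left out.

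Medians of families moved as follows. Dlx/Msx stood at 2.14 with at least 5 CPM and between 2.07 and 2.74 with each library left out. Irx stood at -1.26 with library sizes alone, -1.27 on the log2 RPKM, -1.17 with no filter, and between -1.42 and -1.32 with each library left out. Tgif stood at -0.41 with library sizes alone and on the log2 RPKM. With no filter, which adds members with few counts, Lhx stood at 0.41, Prrx/Alx at 0.87 and Shox2/Pitx1 at -1.86. Hlx/Hhex ran from 1.21 to 1.86 with each library left out.

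Signs changed in uncalled members alone. With library sizes alone Satb1 was at 0.046 and Six5 at 0.022, and on the log2 RPKM at 0.048 and 0.030. Prrx2 was at -0.017 with RLE factors, -0.021 with no filter, -0.017 with DESeq2, -0.028 with voom and -0.012 with the replicate block. With each library left out, values ran from -0.17 to 0.047 for Satb1, from -0.20 to 0.083 for Six5, from -0.062 to 0.17 for Prrx2, from -0.070 to 0.11 for Pbx2 and from -0.77 to 0.21 for Zfhx2. The cause of these changes was not tested. At these depths 1 to 3 counts, as for Irx4, Pitx1 and Onecut1, cannot show a difference between the tissues.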
